A study of Mus musculus with 2 samples.

Results

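EC_VEN-PV+ is a class of venous endothelial cells of the mouse sciatic nerve. Its cells were taken from the submitters' own annotation, which gives each annotated cell 1 class. 580 cells carried the label. A cell was left out where its barcode had at least 5 times as many unique molecular identifiers (UMIs, the tags that mark single RNA molecules) in the other library, which removed 5 cells. The class then held 575 cells, 362 from injured and 213 from intact nerve, of 1992 endothelial cells chosen in the same way (1274 injured, 718 intact), 2301 annotated cells and 3641 barcodes in all.

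Both libraries came from adult mice that carried Cdh5(PAC)-CreERT2, a tamoxifen-inducible Cre driven by the endothelial cadherin gene, and R26-TomatoLSL, a reporter that makes tdTomato once Cre has removed its stop cassette. Injured cells came from the bridge, the lesion site of the sciatic nerve 7 days after injury, and intact cells came from pooled uninjured sciatic nerves. In both, tdTomato+ CD45- cells were sorted after enzymatic dissociation and sequenced as 1 droplet library per condition, so the profiles hold cells of the Cdh5 lineage and a sort that removes leukocytes. With 1 library per condition there is no replicate, and no difference between injured and intact nerve has a test. Values are UMIs summed over the cells of a class and given per 1000000 UMIs of that class (CPM). Ranges in parentheses after a fold or a share are exact 95% intervals that cover counting error only, not the spread between animals or libraries. Where a share was 0, the limit it allows is 3 over the number of cells. This is tighter than the exact interval, whose upper end is 2.20% for mitosis genes in 0 of 166 cells.

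Veins and postcapillary venules are the vessels at which most leukocytes leave the blood. Their endothelium stores P-selectin (Selp) with von Willebrand factor (Vwf) in secretory granules, shows E-selectin (Sele) when inflamed, and carries the atypical chemokine receptor Ackr1, which moves chemokines across the vessel wall. Plvap builds the diaphragms of fenestrae and caveolae and marks leaky vessels, whereas the barrier vessels inside nerve fascicles are known for tight junctions with Cldn5 and little Plvap. Nr2f2 is a transcription factor that maintains venous identity.

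All 5 markers of the label were high in the class in both libraries. Selp reached 1385 CPM in injured and 1266 CPM in intact nerve. Ackr1 reached 632 CPM in injured and 697 CPM in intact nerve. Plvap, at 1716 CPM in injured and 2240.2 CPM in intact nerve, and Vwf, at 767 CPM in injured and 1396 CPM in intact nerve, were the most abundant of the 5 in intact nerve. Nr2f2, a transcription factor, reached 349 CPM in injured and 363 CPM in intact nerve. Each of the 5 was higher than in the other EC_ classes pooled, within each library. Selp was 5.49-fold (5.28 to 5.72) higher in injured and 162-fold (109 to 251) higher in intact nerve. Ackr1 was 6.31-fold (5.93 to 6.72) higher in injured and 203-fold (113 to 407) higher in intact nerve. Plvap was 1.5-fold (1.46 to 1.54) higher in injured and 6.8-fold (6.33 to 7.30) higher in intact nerve. For Vwf these folds were 2.50-fold (2.39 to 2.61) in injured and 3.20-fold (2.98 to 3.43) in intact nerve, and for Nr2f2 3.04-fold (2.84 to 3.25) in injured and 5.07-fold (4.32 to 5.95) in intact nerve. The class thus stood farther from its neighbours in intact than in injured nerve for every marker. These comparisons describe the class and are not tests, because the classes were made from the same cells and genes.

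In GRCm38, Selp lies at chr1:164115264-164150026 and Sele at chr1:164048234-164057677 on the same strand, so these selectin genes are neighbours, while Ackr1 lies further along the chromosome at chr1:173331886-173333750. Plvap (chr8:71497765-71511752), Vwf (chr6:125546774-125686679) and Nr2f2 (chr7:70351944-70366735) lie on other chromosomes.

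Among single classes, the 5 markers had different partners. Plvap was highest in EC_CAP-PV+ (2534 CPM in injured and 3582 CPM in intact nerve), a class of 13 injured and 42 intact cells, and EC_VEN-PV+ came next in injured nerve. In intact nerve it came after that class and the 4 cells of EC_IMMAT (2292 CPM). In intact nerve Plvap was low in EC_BAR (16.2 CPM), EC_ART (36.5 CPM) and EC_VEN-PV- (44.7 CPM). In injured nerve no class was low: EC_ART had the lowest level, 620.2 CPM. Ackr1 and Selp in intact nerve were low in every other EC_ class, the next highest being EC_VEN-PV- with 10.2 CPM of Ackr1 and 26.4 CPM of Selp. In injured nerve EC_VEN-PV- held 652 CPM of Ackr1 and 1041 CPM of Selp, and the interval of the Ackr1 ratio of EC_VEN-PV+ to EC_VEN-PV-, 0.969-fold (0.900 to 1.04), includes 1. Vwf was higher in EC_VEN-PV- than in EC_VEN-PV+ in injured nerve (1132 CPM) and lower in intact nerve (619.6 CPM). Nr2f2 was highest in EC_VEN-PV+ in both libraries, followed by EC_VEN-PV- (227 CPM in injured and 219 CPM in intact nerve).

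**Figure D1:**
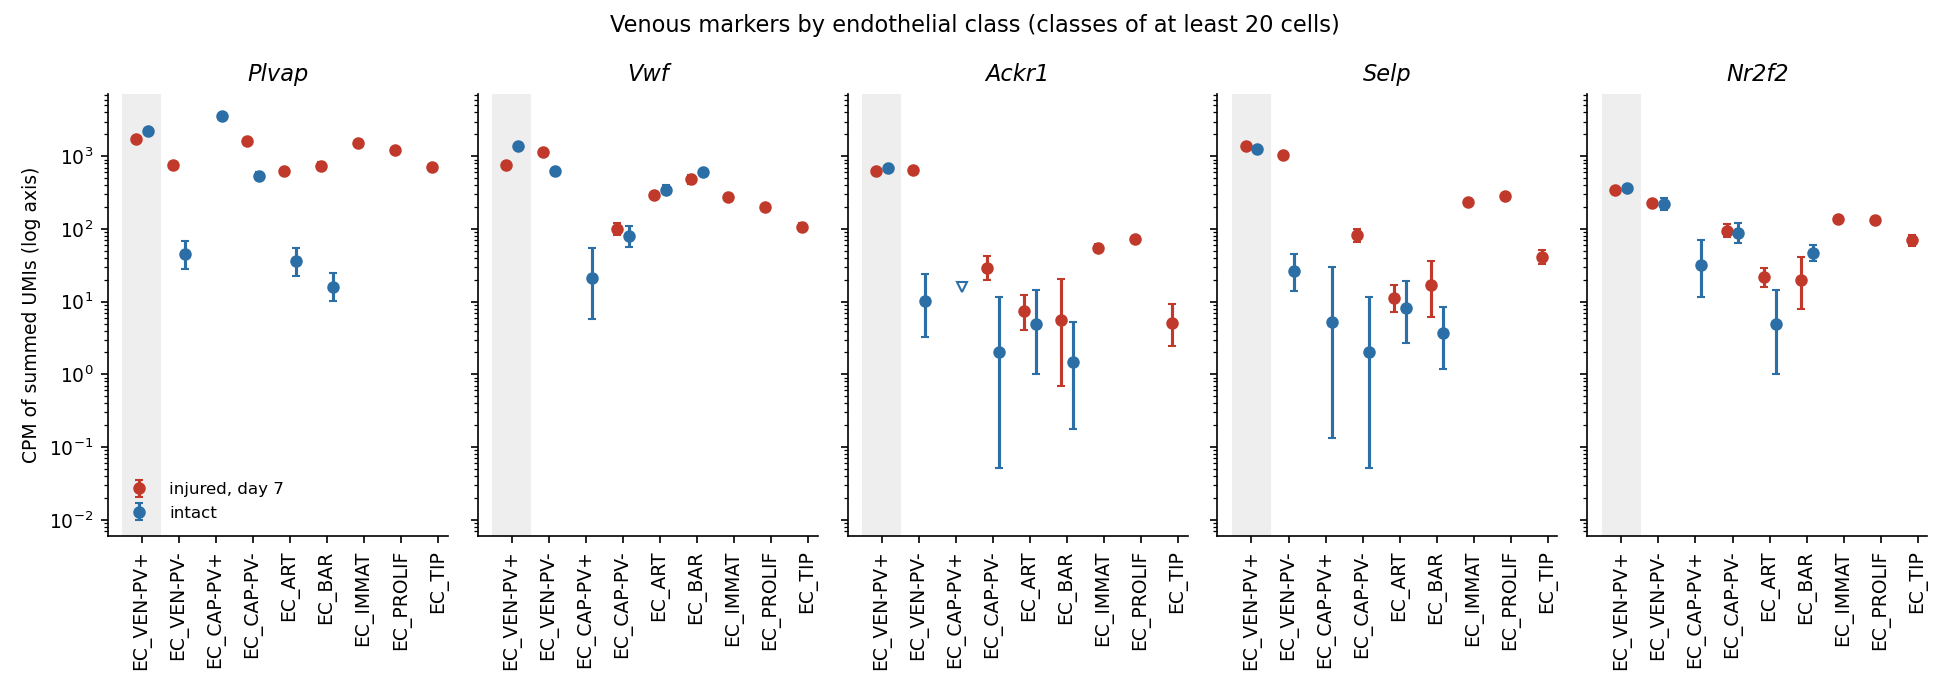
Levels of the 5 markers in each EC_ class with at least 20 cells in a library (CPM, log axis), injured in red and intact in blue. Points are summed UMIs as CPM, bars are 95% Poisson intervals, and an open triangle marks the level of 3 UMIs where none was counted. In EC_VEN-PV+ the injured and intact points lie close together for Ackr1, Selp and Nr2f2, while in EC_VEN-PV- Ackr1 and Selp lie at 652 and 1041 CPM in injured but at 10.2 and 26.4 CPM in intact nerve.

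Cell by cell, the markers were found together. They are the markers of the label by which these cells were chosen, so the shares describe the class and are no test. To compare cells of unequal depth, each was thinned to 3000 UMIs, which kept 354 injured and 166 intact cells of the class and left out 8 and 47 shallower ones. After thinning, Selp had a UMI in 89.5% of injured and 78.3% of intact cells (before thinning 97.0% and 79.3%), against 3.05% and 1.67% in EC_ART, an arterial class that should lack it. Ackr1 had a UMI in 65.3% and 71.7% (before thinning 84.5% and 73.2%), against 1.53% and 1.67% in EC_ART. The median depth was 10151.5 UMIs in injured and 4893 in intact EC_VEN-PV+ cells, and 11107 and 4513 in EC_ART. At least 3 of the 5 markers were found in 93.2% of injured and 88.6% of intact EC_VEN-PV+ cells, and all 5 in 36.4% and 39.2%. At least 3 were found in 84.5% of injured but 13.6% of intact EC_VEN-PV- cells, in 37.4% of injured EC_IMMAT and 29.3% of injured EC_PROLIF cells, and in 3.82% of injured and none of the 60 intact EC_ART cells, which allows up to 5%.

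The class made up a like share of the endothelium in both libraries. It was 28.4% (26.0 to 31.0) of EC_ cells in injured and 29.7% (26.3 to 33.2) in intact nerve, a ratio of 0.958 (0.806 to 1.14), whose interval includes 1. Under the other choices of cells the ratio lay between 0.840 (0.697 to 1.02), with cells of at least 3000 UMIs, and 1.11 (0.871 to 1.42), with cells under 5% mitochondrial UMIs. The classes around it differed more in number: injured nerve had 260 EC_IMMAT, 162 EC_PROLIF, 100 EC_TIP and 121 EC_VEN-PV- cells, against 4, 11, 4 and 44 in intact nerve, while EC_BAR had 36 injured and 181 intact cells. These numbers depend on the rule on shared barcodes. Before it, intact nerve had 52 EC_IMMAT, 38 EC_PROLIF and 21 EC_TIP cells, and injured nerve 83 EC_BAR cells. Few cells of the class held transcripts of mitosis genes: at least 2 genes of a 19-gene mitosis list had a UMI in 1.41% (0.460 to 3.27) of thinned injured cells, 5 of 354, and in 0 of 166 intact cells, which allows up to 1.81%, against 85.4% of injured EC_PROLIF cells.

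The libraries differed in ways that touch every comparison between them. Injured cells of the class were deeper, had 3310 median genes against 2029 in intact cells, and had a median mitochondrial share of 3.82% against 5.38%. The animals' sexes are not given, and Xist reached 1002 CPM in injured and 232 CPM in intact nerve while the Y-linked Ddx3y reached 20.2 CPM in injured and 41.6 CPM in intact nerve. Mir6236, a short non-coding RNA gene, had 271 CPM in injured and 1877 CPM in intact nerve. The libraries shared 298 barcodes, of which 12 injured and 11 intact cells of the class are kept. Each of these had at least 14370 UMIs and its namesake in the other library had at most 1025. The part of these differences in the results was not tested.

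Markers of other cell types were low in the class, with a few exceptions. The endothelial genes Cdh5 (1008 CPM in injured and 750.2 CPM in intact nerve) and Pecam1 (997 CPM in injured and 1102 CPM in intact nerve) were high and the reporter was read at 107 CPM in injured and 89.96 CPM in intact nerve. The leukocyte gene Ptprc was at 0 in both, as were Lyz2, C1qa, Adgre1, Mrc1 and Tyrobp. The 14 myeloid genes summed to 77.4 CPM in injured and 49.1 CPM in intact nerve, most of it Cd14, with 64.4 CPM in injured and 35.7 CPM in intact nerve, found in 114 of 362 injured and 28 of 213 intact cells. The 6 perineurial genes summed to 122 CPM in injured and 238 CPM in intact nerve, most of it the integrin gene Itgb4, with 115 CPM in injured and 230.5 CPM in intact nerve, found in 233 injured and 141 intact cells. The 12 pericyte and muscle genes summed to 345 CPM in injured and 1491 CPM in intact nerve, of which Tagln alone, an actin-binding protein, gave 321 CPM in injured and 1435 CPM in intact nerve and was found in 194 of 362 injured and 156 of 213 intact cells. The defining members Pdgfrb, Myh11, Notch3 and Des were each below 1 CPM, and Tagln in the other EC_ classes was 109 CPM in injured and 329.7 CPM in intact nerve. Rgs5, a pericyte gene, had 4.0 CPM in injured and 32.7 CPM in intact nerve, with 42 of its 44 intact UMIs in 1 cell. The 10 fibroblast genes summed to 35.3 CPM in injured and 78.1 CPM in intact nerve, most of it Dcn in intact nerve (10.5 CPM in injured and 62.5 CPM in intact nerve). The 11 Schwann cell genes summed to 51.1 CPM in injured and 92.2 CPM in intact nerve, mostly Pmp22. The 9 lymphatic genes summed to 25.5 CPM in injured and 72.1 CPM in intact nerve, with Prox1 at 7.15 CPM in injured and 29.0 CPM in intact nerve. The 5 erythroid genes summed to 142.6 CPM in injured nerve, where 415 of the 416 Hbb-bs UMIs lay in 1 cell, and to 0.744 CPM in intact nerve.

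Set against the other EC_ classes pooled, few genes stood apart in both libraries. A gene counted as measured where its CPM averaged at least 10 over the groups compared, and folds used for counting were taken after adding 5 CPM, which shrinks the folds of low genes. Of 8244 measured genes, 135 (1.64%) were at least 2-fold higher in EC_VEN-PV+ in both libraries and 107 (1.3%) at least 2-fold lower. The less extreme of the 2 libraries' log2 ratios, set to 0 where their signs differed, had a median of 0 (10th to 90th percentile -0.22 to 0.26). That rule pulls values towards 0, so these figures are not the spread of ratios within a library. In injured nerve alone 172 (2.09%) were higher and 169 (2.05%) lower, and in intact nerve alone 371 (4.5%) and 435 (5.28%). The other classes pooled are not the same mix in both libraries, as the cell numbers above show.

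The genes named as highest against the pooled classes, beside Ackr1 and Selp, included secreted and adhesion genes. Lbp, the plasma protein that binds bacterial lipopolysaccharide, had 127 CPM against 18.6 CPM in the other EC_ classes in injured nerve, and 261 CPM against 7.19 CPM in intact nerve. It was 6.82-fold (5.91 to 7.88) higher in injured and 36.3-fold (23.8 to 58.0) higher in intact nerve. Sele, the inducible selectin, had 271 CPM against 60.8 CPM in the other EC_ classes in injured nerve, and 211 CPM against 8.44 CPM in intact nerve. Like Selp it was thus high in the class in both libraries and closer to the other classes in injured nerve, with folds of 4.46-fold (4.10 to 4.86) in injured and 25-fold (16.8 to 38.6) in intact nerve. Lrg1, a secreted glycoprotein that modulates TGF-beta signalling in vessels, was not among these highest genes. It was named because its injured to intact ratio differed between the class and the others. Lrg1 had 2063 CPM against 871 CPM in the other EC_ classes in injured nerve, and 2066 CPM against 71.6 CPM in intact nerve. Its level in the class was nearly the same in both libraries, and the level in the other classes differed. EC_VEN-PV- (2350.4 CPM), EC_BAR (1237 CPM) and EC_IMMAT (1092 CPM) had the most Lrg1 among the others in injured nerve. EC_VEN-PV- was also close to EC_VEN-PV+ in injured nerve for Sele, where the ratio of EC_VEN-PV+ to EC_VEN-PV- was 1.30-fold (1.14 to 1.48) in injured and 4.33-fold (2.85 to 6.87) in intact nerve, and for Lbp, where it was 1.47-fold (1.21 to 1.80) in injured and 14.3-fold (7.43 to 31.5) in intact nerve. Both venous classes held these genes in injured nerve.

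Growth factor, matrix and prostaglandin genes followed. Igf1, insulin-like growth factor 1, had 246 CPM against 43.9 CPM in the other EC_ classes in injured nerve, and 135 CPM against 8.76 CPM in intact nerve. It was 5.60-fold (5.09 to 6.17) higher in injured and 15.5-fold (10.3 to 23.9) higher in intact nerve. In EC_VEN-PV- Igf1 was low, with 11.8 CPM in injured and 4.06 CPM in intact nerve. Aebp1, a secreted collagen-binding protein, had 209.9 CPM against 37.3 CPM in the other EC_ classes in injured nerve, and 131 CPM against 5.63 CPM in intact nerve. Ptgs1, the constitutive prostaglandin synthase, had 171 CPM against 39.3 CPM in the other EC_ classes in injured nerve, and 256 CPM against 33.8 CPM in intact nerve. Slco2a1, the prostaglandin transporter, had 476 CPM against 126 CPM in the other EC_ classes in injured nerve, and 442 CPM against 51.6 CPM in intact nerve. Both genes of prostaglandin handling were at least 3.78-fold higher than in the other classes pooled in each library. Against EC_VEN-PV- alone Ptgs1 was 1.35-fold (1.14 to 1.59) higher in injured and 5.47-fold (3.59 to 8.75) higher in intact nerve, and Slco2a1 1.26-fold (1.15 to 1.39) higher in injured and 5.44-fold (3.95 to 7.70) higher in intact nerve.

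Il6st, the shared signalling receptor of interleukin-6 family cytokines, had 939 CPM against 279 CPM in the other EC_ classes in injured nerve, and 1609.7 CPM against 299.6 CPM in intact nerve. No other EC_ class reached the Il6st level of EC_VEN-PV+ in either library. Neurl3, a ubiquitin ligase, had 169 CPM against 38.7 CPM in the other EC_ classes in injured nerve, and 213 CPM against 25 CPM in intact nerve. Ctnnal1, an alpha-catenin-like protein, had 143 CPM against 22.2 CPM in the other EC_ classes in injured nerve, and 216 CPM against 41.0 CPM in intact nerve. Mustn1, a small nuclear protein, had 111 CPM against 26.6 CPM in the other EC_ classes in injured nerve, and 184 CPM against 24.4 CPM in intact nerve. These genes were each at least 3.37-fold higher than in the pooled classes in each library. EC_VEN-PV- was nearer in injured nerve. Against it Il6st was 1.48-fold (1.38 to 1.59) higher in injured and 4.11-fold (3.54 to 4.78) higher in intact nerve, and Neurl3 1.69-fold (1.41 to 2.03) higher in injured and 3.89-fold (2.62 to 6.01) higher in intact nerve. For Mustn1 the ratio was 1.06-fold (0.885 to 1.28) in injured nerve, an interval that includes 1, and 3.24-fold (2.19 to 4.98) in intact nerve. Ctnnal1 was 2.34-fold (1.87 to 2.96) higher in injured and 3.67-fold (2.50 to 5.58) higher in intact nerve.

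The genes named as lowest in the class included Cldn5, Mal and some capillary genes. Cldn5, the main claudin of endothelial tight junctions, had 75.9 CPM against 733 CPM in the other EC_ classes in injured nerve, and 48.3 CPM against 3721 CPM in intact nerve. It was 9.66-fold (8.70 to 10.8) lower in injured and 77.0-fold (60.4 to 99.8) lower in intact nerve, and EC_VEN-PV+ had the lowest Cldn5 level of the EC_ classes in both libraries. A Cldn5 UMI was found in 15.3% of thinned injured and 6.63% of thinned intact cells (before thinning 30.9% and 12.7%), against 90.8% of injured and all 60 of the intact EC_ART cells. Mal, a membrane raft protein that is also on the list of Schwann cell markers, had 4.0 CPM against 116 CPM in the other EC_ classes in injured nerve, and 8.92 CPM against 889 CPM in intact nerve. Mal was the gene with the deepest fold of those named as lower, 29.1-fold (18.6 to 48.5) in injured and 99.6-fold (56.9 to 193) in intact nerve.

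Cxcl12, a chemokine known from arterial endothelium, had 40.8 CPM against 415 CPM in the other EC_ classes in injured nerve, and 461 CPM against 2557 CPM in intact nerve. Igfbp3, a binding protein for insulin-like growth factors, had 16.6 CPM against 246 CPM in the other EC_ classes in injured nerve, and 11.2 CPM against 121 CPM in intact nerve. Members of the capillary list lay on both sides. Rgcc, a regulator of the cell cycle enriched in capillaries, had 89.6 CPM against 383 CPM in the other EC_ classes in injured nerve, and 22.3 CPM against 276 CPM in intact nerve. Gpihbp1, which holds lipoprotein lipase on capillaries, had 119 CPM against 444 CPM in the other EC_ classes in injured nerve, and 37.2 CPM against 404 CPM in intact nerve. Aqp1, a water channel of the same list, was higher in EC_VEN-PV+, with 1266 CPM in injured and 2825 CPM in intact nerve in the class and 429.7 CPM in injured and 471 CPM in intact nerve in the other EC_ classes. Fabp4, a fatty acid carrier, was higher too, with 5734 CPM in injured and 10611 CPM in intact nerve in the class and 2919 CPM in injured and 3908 CPM in intact nerve in the others. The 9 capillary genes summed to 7644 CPM in EC_VEN-PV+ against 4594 CPM in the others in injured nerve, and to 14544 CPM against 6456 CPM in intact nerve. Of the 16 barrier genes only 5 were measured in the class. The barrier transporters Slco1a4 and Mfsd2a had no UMI in injured EC_VEN-PV+. In intact nerve Slco1a4 had 8.92 CPM against 625 CPM in the other EC_ classes, and Mfsd2a 4.46 CPM against 259 CPM.

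**Figure D2:**
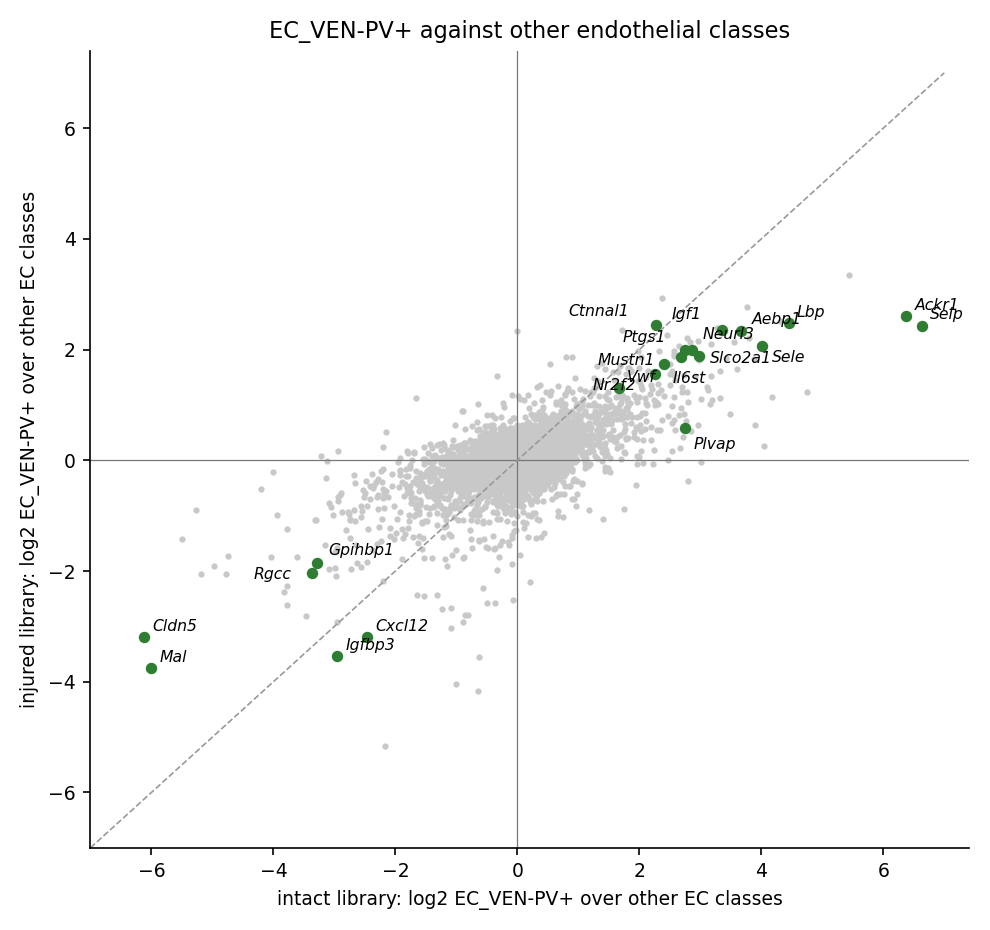
Each point is a measured gene, placed by the log2 ratio of EC_VEN-PV+ to the other EC_ classes in intact nerve (x) and in injured nerve (y), after adding 5 CPM. The dashed line marks equal ratios and the named genes are in green. Selp and Ackr1 lie far to the right and below the line, since they were 5.49 and 6.31 times the other classes in injured nerve and 162 and 203 times in intact nerve.

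Against EC_VEN-PV-, the other venous class, the genes named as highest in EC_VEN-PV+ included Fabp4, Cd36 and Fabp5. Of 8115 measured genes, 79 (0.974%) were at least 2-fold higher in both libraries and 87 (1.07%) at least 2-fold lower. In injured nerve alone 120 (1.48%) were higher and 125 (1.54%) lower, and in intact nerve alone 640 (7.89%) were higher and 372 (4.58%) lower. Fabp4, a fatty acid carrier, had 5734 CPM against 51.5 CPM in EC_VEN-PV- in injured nerve, and 10611 CPM against 40.6 CPM in intact nerve. It was 111-fold (88.6 to 142) higher in injured and 261-fold (169 to 428) higher in intact nerve. Cd36, a fatty acid receptor, had 350.0 CPM against 4.18 CPM in EC_VEN-PV- in injured nerve, and 858 CPM against 2.03 CPM in intact nerve. The Cd36 ratio was 83.8-fold (38.4 to 229) in injured nerve and 422-fold (75.7 to 16696) in intact nerve, where EC_VEN-PV- held 1 UMI of it. Fabp5, a carrier related to Fabp4, had 479 CPM against 14.6 CPM in EC_VEN-PV- in injured nerve, and 525 CPM against 6.09 CPM in intact nerve. Fabp4 and Cd36 were high in other classes too: in EC_CAP-PV- Fabp4 reached 16981 CPM in injured and 20415 CPM in intact nerve. Cd36 there reached 1665 CPM in injured and 3056 CPM in intact nerve. The 4 adipocyte genes, which would mark fat cells, had no UMI in EC_VEN-PV+ in either library.

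Igf1, Cpe and Rasa4 completed the genes named as higher. Cpe, which processes prohormones, had 299 CPM against 58.5 CPM in EC_VEN-PV- in injured nerve, and 435 CPM against 8.13 CPM in intact nerve. Rasa4, which switches off Ras, had 109 CPM against 20.9 CPM in EC_VEN-PV- in injured nerve, and 288 CPM against 32.5 CPM in intact nerve.

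The genes lower than in EC_VEN-PV- included tight junction and efflux genes. Mal had 4.0 CPM against 247 CPM in EC_VEN-PV- in injured nerve, and 8.92 CPM against 1201 CPM in intact nerve. Cldn5 had 75.9 CPM against 363 CPM in EC_VEN-PV- in injured nerve, and 48.3 CPM against 3504 CPM in intact nerve. Abcb1a, an efflux pump of barrier endothelium, had 57.4 CPM against 260.5 CPM in EC_VEN-PV- in injured nerve, and 126 CPM against 1056 CPM in intact nerve. All 3 gaps were narrower in injured nerve, where EC_VEN-PV- had less of each. Ptn, a heparin-binding growth factor, had 16.8 CPM against 242 CPM in EC_VEN-PV- in injured nerve, and 184 CPM against 1753 CPM in intact nerve. Lcn2, an iron-trapping protein of inflammation, had 13.5 CPM against 136 CPM in EC_VEN-PV- in injured nerve, and 12.6 CPM against 390.1 CPM in intact nerve. Meis2, a homeobox factor, had 12.4 CPM against 114 CPM in EC_VEN-PV- in injured nerve, and 19.3 CPM against 152 CPM in intact nerve. Meis2 differed about as much in both libraries, 9.20-fold (6.8 to 12.6) in injured and 7.88-fold (4.99 to 12.8) in intact nerve.

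Across 7650 genes, with 180000 UMIs drawn from each class, and among the classes with at least 20 cells and that many UMIs, the profile of EC_VEN-PV+ was closest to EC_VEN-PV- in injured nerve (Pearson r = 0.835 on log2 values, across genes that are not independent), followed by EC_IMMAT (0.830), EC_PROLIF (0.814) and EC_CAP-PV- (0.812), and 0.782 with EC_ART and 0.781 with EC_BAR. In intact nerve EC_VEN-PV- and EC_CAP-PV- both gave 0.764 and EC_BAR the lowest value, 0.737. In injured nerve EC_CAP-PV+ held too few cells and UMIs to be drawn. For scale, a second draw from EC_VEN-PV+ itself gave 0.870 in injured and 0.878 in intact nerve.

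Between injured and intact nerve, EC_VEN-PV+ cells differed in matrix, chemokine, immediate early, flow response and MHC class II genes, among others. The 5 venous markers lay within 2-fold. They are the markers of the label by which the cells were chosen in each library, so their near levels are no test of a kept identity. Of 8108 measured genes, 306 (3.77%) were at least 2-fold higher in injured nerve and 374 (4.61%) at least 2-fold lower, 680 (8.39%) in all, with a median of 0.06 on the log2 scale (10th to 90th percentile -0.64 to 0.68). Among the markers Plvap was 1.31-fold (1.25 to 1.36) and Vwf 1.82-fold (1.72 to 1.92) lower, Selp was 1.09-fold (1.04 to 1.15) higher, and the interval of the Nr2f2 ratio, 0.962 (0.869 to 1.07), included 1. Ackr1 was 1.10-fold (1.02 to 1.19) lower. Leaving out cells with at least 2 UMIs of fibroblast, myeloid, Schwann cell or pericyte genes kept 97 injured and 50 intact cells and gave 929 higher and 667 lower genes, of which 205 and 260 were shared with the counts above. Vwf then passed 2-fold, at -1.02 on the log2 scale. With Tagln, Acta2, Cd14 and Pmp22 not counted as such genes, 287 and 178 cells stayed and the counts were 332 and 366.

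Matrix and matrix-related genes were 6 of the 12 genes named as higher in injured nerve. Col4a1, a main collagen IV chain of basement membrane, had 1849 CPM in injured and 186 CPM in intact nerve, 9.95-fold (8.77 to 11.3) higher. Col4a2, its partner chain and divergently transcribed neighbour, had 1134 CPM in injured and 147 CPM in intact nerve, 7.70-fold (6.68 to 8.92) higher. In GRCm38 they lie at chr8:11198423-11312826 on the minus strand and chr8:11312805-11449287 on the plus strand. Col18a1, the source of endostatin, had 569 CPM in injured and 61.0 CPM in intact nerve, 9.33-fold (7.49 to 11.8) higher. Lamb1, a laminin chain, had 145 CPM in injured and 15.6 CPM in intact nerve, 9.26-fold (6.01 to 15) higher. Mmp14, a membrane-bound matrix protease, had 145 CPM in injured and 14.9 CPM in intact nerve, 9.72-fold (6.24 to 16) higher. The other EC_ classes were higher in injured nerve for each of these too, Col4a1 having 2607 CPM in injured and 477 CPM in intact nerve there and Mmp14 120.0 CPM in injured and 6.57 CPM in intact nerve. Fibroblasts also make matrix. The 10 fibroblast genes summed to 35.3 CPM in injured and 78.1 CPM in intact EC_VEN-PV+, of which Dcn gave 10.5 and 62.5 CPM. The part of fibroblast RNA in the matrix levels was not tested.

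Tgfbi, a secreted protein that TGF-beta induces, had 479 CPM in injured and 21.6 CPM in intact nerve, 22.2-fold (15.4 to 33.3) higher. In the other EC_ classes it had 147 CPM in injured and 2.50 CPM in intact nerve, so its level was higher in EC_VEN-PV+ in both libraries. A Tgfbi UMI was found in 62.7% of thinned injured and 7.83% of thinned intact cells (before thinning 84.5% and 10.3%), against 3.82% and 0% (0 of 60 cells, which allows up to 5.00%) in EC_ART.

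Mest, an imprinted gene of growing tissue, had the largest fold among the 12, with 218 CPM in injured and 5.95 CPM in intact nerve, 36.7-fold (18.6 to 85.3) higher. A Mest UMI was found in 32.5% of thinned injured and 0.602% of thinned intact cells (before thinning 59.7% and 3.29%), against 25.2% and 1.67% in EC_ART. The other EC_ classes had more of it, 469.8 CPM in injured and 11.3 CPM in intact nerve. Marcksl1, an actin regulator, had 261 CPM in injured and 22.3 CPM in intact nerve, 11.7-fold (8.16 to 17.4) higher. Lgals1, the secreted lectin galectin-1, had 249 CPM in injured and 23.0 CPM in intact nerve, 10.8-fold (7.58 to 16) higher. Sox4, a transcription factor, had 544 CPM in injured and 91.5 CPM in intact nerve, 5.95-fold (4.96 to 7.18) higher. The last of this group without a matrix or cytokine role, Fam167b, had 339.7 CPM in injured and 42.4 CPM in intact nerve.

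Csf3, the cytokine that mobilises neutrophils, had 111 CPM in injured and 8.18 CPM in intact nerve, 13.6-fold (7.53 to 27.4) higher. It was spread over 108 of 362 injured and 8 of 213 intact cells. After thinning, Csf3 had a UMI in 15.5% of injured and 1.20% of intact cells, against 2.29% and 0% (0 of 60 cells, which allows up to 5.00%) in EC_ART. EC_VEN-PV- had more, 205 CPM in injured and 8.13 CPM in intact nerve.

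**Figure D3:**
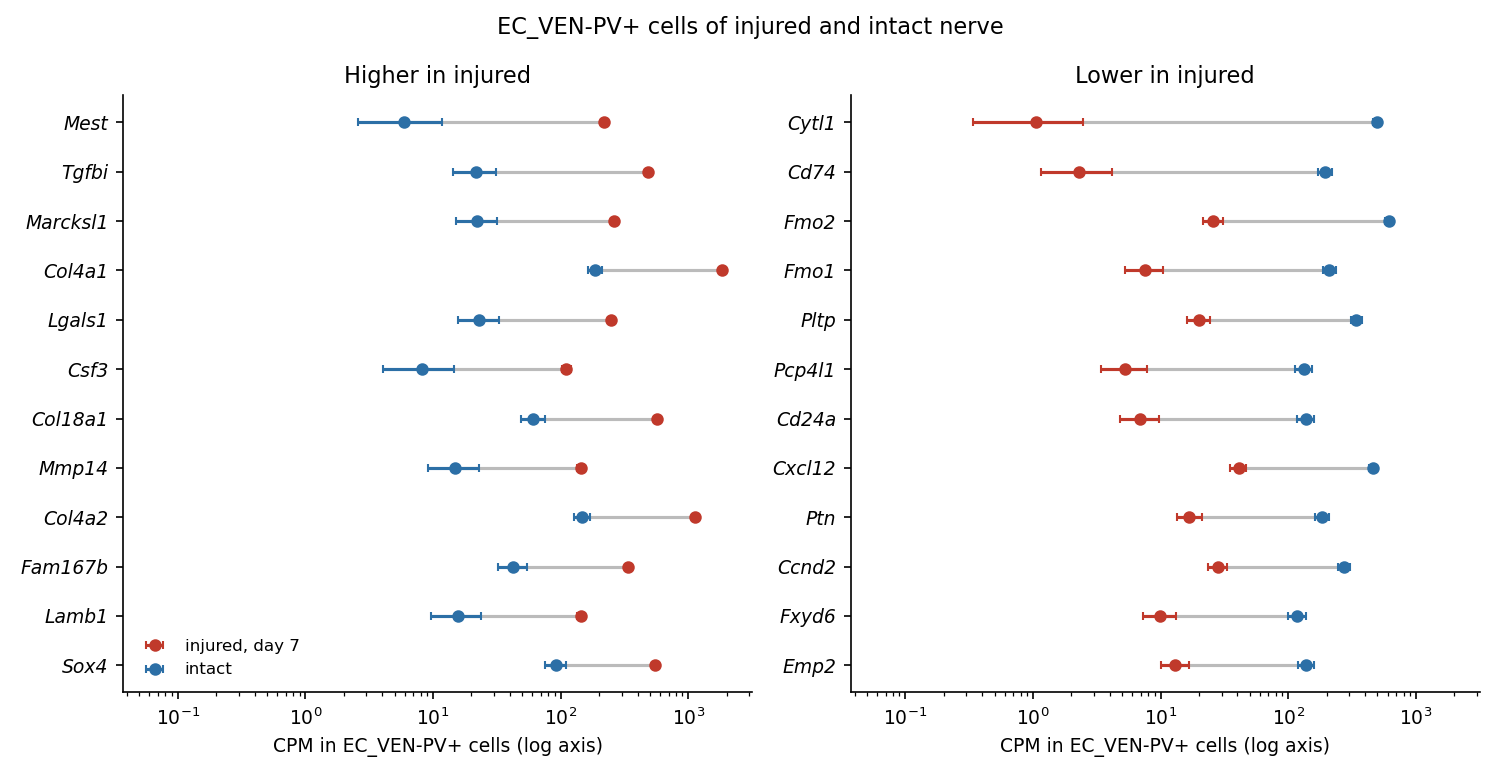
Levels of the 12 named genes higher and the 12 named genes lower in injured than in intact EC_VEN-PV+ (CPM, log axis), injured in red and intact in blue, with 95% Poisson intervals. The intervals of injured and intact do not overlap for any of the 24 genes, which were picked for their extreme ratios, so this is no test. Cytl1 spans the widest gap, 1.05 CPM in injured and 495 CPM in intact nerve.

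Cytl1 and Cd74 had the lowest log2 ratios, after adding 5 CPM, among genes with at least 100 CPM in one of the libraries. Cytl1, a secreted cytokine-like protein, had 1.05 CPM in injured and 495 CPM in intact nerve, 471-fold (201 to 1455) lower. Its 5 injured UMIs all lay in 1 cell, while its 666 intact UMIs were spread over 73 cells. After thinning, Cytl1 had a UMI in 0.282% of injured and 33.1% of intact cells (before thinning 0.276% and 34.3%), against 0% (0 of 33 cells, which allows up to 9.09%) and 0% (0 of 121 cells, which allows up to 2.48%) in EC_BAR. EC_ART was not free of it, with 3.82% in injured and 18.3% in intact nerve. Cd74, the invariant chain that escorts MHC class II, had 2.31 CPM in injured and 195 CPM in intact nerve, 84.2-fold (46.3 to 171) lower. Of its 11 injured UMIs 10 lay in 1 cell, and its intact UMIs lay in 69 cells. After thinning, Cd74 had a UMI in 0.282% of injured and 25.3% of intact cells (before thinning 0.552% and 32.4%), against 0% (0 of 131 cells, which allows up to 2.29%) and 3.33% in EC_ART.

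A pair of oxidising enzymes came next. Fmo2, a flavin-containing monooxygenase, had 25.9 CPM in injured and 619 CPM in intact nerve, 23.9-fold (19.8 to 29.1) lower. Its relative Fmo1 had 7.57 CPM in injured and 209.7 CPM in intact nerve, 27.7-fold (19.5 to 40.3) lower. Pltp, which transfers phospholipids between lipoproteins, had 19.98 CPM in injured and 342 CPM in intact nerve, 17.1-fold (13.7 to 21.6) lower. Ccnd2, a D-type cyclin, had 28.0 CPM in injured and 273 CPM in intact nerve, 9.75-fold (7.98 to 12) lower. Secreted signals were among these genes too. Cxcl12 had 40.8 CPM in injured and 461 CPM in intact nerve, 11.3-fold (9.60 to 13.3) lower, and a UMI in 7.06% of thinned injured and 60.8% of thinned intact cells. Ptn had 16.8 CPM in injured and 184 CPM in intact nerve, 11-fold (8.48 to 14.3) lower.

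The remaining genes named as lower encode membrane proteins and a calmodulin regulator. Pcp4l1, related to the calmodulin regulator Pcp4, had 5.26 CPM in injured and 132 CPM in intact nerve. Emp2, a tetraspan membrane protein, had 13 CPM in injured and 138 CPM in intact nerve. Cd24a, a surface glycoprotein, had 6.94 CPM in injured and 137 CPM in intact nerve, with 15 of its 33 injured UMIs in 1 cell. Fxyd6, a regulator of the sodium pump, differed from the rest in the other EC_ classes. In EC_VEN-PV+ it had 9.89 CPM in injured and 117 CPM in intact nerve, 11.9-fold (8.53 to 16.8) lower, whereas the other classes had 14.3 CPM in injured and 12.5 CPM in intact nerve.

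The other EC_ classes pooled went the same way for many of these genes. Over the same 8108 genes they had 470 (5.8%) at least 2-fold higher and 519 (6.4%) at least 2-fold lower in injured nerve. Of the 306 genes higher in the class, 174 were also higher in the other classes, 56.9% of the class's and 37.0% of the others' genes, and of the 374 lower, 220 were shared, 58.8% and 42.4%. Both sets come from the same 2 libraries, so anything that differs between the libraries as a whole enters both.

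The difference between the class and the others in their injured to intact ratios was at least 2-fold upward for 311 of 8244 genes (3.77%) and downward for 244 (2.96%), 555 (6.73%) in all. At the low end were Selp (-4.20 on the log2 scale), Ackr1 (-3.78), Lrg1 (-3.52) and Nt5e (-3.25), and Pclaf, a DNA replication factor of dividing cells (-3.52). Pclaf came to 0.17 once cells with UMIs of at least 2 mitosis genes were left out. For Selp, Ackr1 and Lrg1 the class was near level, while the other classes were higher in injured nerve. Selp in the others had 252 CPM in injured and 7.82 CPM in intact nerve. Ackr1 in the others had 100.03 CPM in injured and 3.44 CPM in intact nerve, and Lrg1 871 CPM in injured and 71.6 CPM in intact nerve. Nt5e differed in sign: the class was lower and the others were higher in injured nerve, with 28.0 CPM in injured and 112 CPM in intact nerve in the class and 16.1 CPM in injured and 2.81 CPM in intact nerve in the others. At the high end were Car4 (4.37), Slco1a4 (4.07), Lcn2 (3.81), Slc16a4 (3.70) and Mfsd2a (3.59), which were low in EC_VEN-PV+ in both libraries. Slc16a4 came to 0.09 once cells holding other cell types' markers were left out. That filter counts Mal and Acta2, which reached 1172 CPM (Mal, injured) and 909 CPM (Acta2, intact) in EC_BAR. It thus also removes endothelial cells from the other classes, and the part of this in the shift was not tested. Car4, a carbonic anhydrase, had 1.05 CPM in injured and 5.95 CPM in intact nerve in the class, against 6.24 CPM in injured and 415 CPM in intact nerve in the others. The other classes are a different mix in each library, with barrier cells many in intact and immature and dividing cells many in injured nerve, and the part of that mix in these differences was not tested.

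Leukocyte adhesion genes lay on both sides. Of 18 genes 17 were measured, and 3 were at least 2-fold higher and 4 at least 2-fold lower in injured nerve, 41.2% of the measured members in all, against 8.39% of all measured genes. Over all measured genes 3.77% were higher and 4.61% lower, shares against which the counts of every list below are to be read. The list's median was 0.01, against 0.06 over all measured genes. Sele had 271 CPM in injured and 211 CPM in intact nerve, 1.29-fold (1.13 to 1.47) higher. Icam1, the main endothelial ligand of leukocyte integrins, had 635 CPM in injured and 566 CPM in intact nerve, 1.12-fold (1.04 to 1.22) higher. These selectin and integrin ligands thus stayed within 2-fold, as did Selp.

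The 3 higher members were Glycam1, Madcam1 and Mcam. Glycam1 and Madcam1 are mucin-type ligands known from the specialised venules of lymph nodes and gut. Glycam1 had 86.2 CPM in injured and 3.72 CPM in intact nerve, 23.2-fold (9.86 to 71.8) higher, and its injured UMIs lay in 92 cells. After thinning it had a UMI in 11.9% (8.69 to 15.7) of injured and 0.602% of intact cells (before thinning 25.4% and 0.939%). In EC_VEN-PV- these shares were 15.5% in injured and 0% (0 of 44 cells, which allows up to 6.82%) in intact nerve, in EC_BAR 9.09% and 0% (0 of 121 cells, which allows up to 2.48%), and in EC_ART 3.82% and 0% (0 of 60 cells, which allows up to 5.00%). Glycam1 was thus not particular to EC_VEN-PV+ in injured nerve. Madcam1 had 25 CPM, 119 UMIs in 31 cells, in injured nerve and no UMI in intact nerve, at least 11.2-fold higher when a count of 0 over the intact cells is taken to allow 3 UMIs. After thinning it had a UMI in 3.95% of injured cells and in 0 of 166 intact cells, which allows a share of up to 1.81%, and in none of the EC_ART cells. Mcam, an adhesion protein of endothelial junctions, had 245 CPM in injured and 61.0 CPM in intact nerve, 4.02-fold (3.21 to 5.10) higher.

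Among the 4 lower members, Vcam1, a ligand for monocytes and lymphocytes, had 302 CPM in injured and 628 CPM in intact nerve, 2.08-fold (1.91 to 2.27) lower. Jam2, a junctional adhesion molecule, had 245 CPM in injured and 546 CPM in intact nerve, 2.23-fold (2.03 to 2.45) lower. Its relative Jam3 had 7.99 CPM in injured and 23.0 CPM in intact nerve, 2.88-fold (1.73 to 4.76) lower. Podxl, a luminal sialomucin, had 90.2 CPM in injured and 216 CPM in intact nerve, 2.39-fold (2.05 to 2.78) lower. The list therefore held members on both sides of the 2-fold limit around a median near 0.

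Chemokine and cytokine genes were split. Of 19 listed genes 12 were measured, 4 were higher and 5 lower in injured nerve, 75.0% of the measured members in all, against 8.39% of all measured genes, with a median of -0.44. The higher ones act on neutrophils or, for Cxcl10, on T cells. Beside Csf3, Cxcl1 had 135 CPM in injured and 58.7 CPM in intact nerve, 2.30-fold (1.81 to 2.94) higher. Its relative Cxcl2 had 18.5 CPM in injured and 2.97 CPM in intact nerve, 6.22-fold (2.35 to 23.3) higher, and was found in 26 injured and 3 intact cells, with 15 of its 88 injured UMIs in 1 cell. Cxcl10 had 68.2 CPM in injured and 31.2 CPM in intact nerve, 2.18-fold (1.58 to 3.09) higher. The lower ones were Cxcl12, an alarmin, the membrane-bound chemokines and a scavenger receptor. Il33, the alarmin, had 2.31 CPM in injured and 30.5 CPM in intact nerve, 13.2-fold (6.65 to 28.4) lower. Cx3cl1, which tethers monocytes, had 5.05 CPM in injured and 32.7 CPM in intact nerve, 6.48-fold (3.86 to 11.1) lower. Cxcl16 had 8.41 CPM in injured and 29.0 CPM in intact nerve, 3.45-fold (2.16 to 5.50) lower. Ackr3, which removes Cxcl12, had 33.9 CPM in injured and 73.6 CPM in intact nerve, 2.17-fold (1.67 to 2.81) lower, so the chemokine and its scavenger were lower together. The monocyte chemokine Ccl2 was low in both libraries, with 3.79 CPM in injured and 3.72 CPM in intact nerve.

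None of the 17 measured genes of cytokine receptors and NF-kappa-B signalling was 2-fold apart, against 8.39% of all measured genes, a count of 0 in so short a list being close to that share, and their median was -0.12. Nfkbia, the NF-kappa-B inhibitor, had 1876 CPM in injured and 1552 CPM in intact nerve. Socs3, a feedback inhibitor of cytokine signalling, had 747 CPM in injured and 806 CPM in intact nerve. Tnfrsf1a, a TNF receptor, had 367 CPM in injured and 364 CPM in intact nerve. Il6st was 1.71-fold (1.63 to 1.80) lower and Osmr, the oncostatin M receptor, 1.88-fold (1.58 to 2.24) lower. Tnfaip3, another inhibitor of NF-kappa-B, was 1.83-fold (1.37 to 2.48) higher, and like the other 2 it was short of 2-fold.

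MHC genes were lower through class II. Of 14 genes of antigen presentation 12 were measured, none was higher and 4 were lower, all of class II, 33.3% of the measured members in all, against 8.39% of all measured genes. The list's median was -0.64. Beside Cd74, H2-Ab1, a class II beta chain, had 1.26 CPM in injured and 86.2 CPM in intact nerve, 68.3-fold (30.5 to 190.0) lower. H2-Aa, the alpha chain, had 0.210 CPM in injured and 62.5 CPM in intact nerve, and H2-Eb1, another beta chain, 0.210 CPM in injured and 56.5 CPM in intact nerve. Both had 1 injured UMI, and their intact to injured ratios were 297-fold (51.9 to 11866) for H2-Aa and 269-fold (46.8 to 10749) for H2-Eb1. The intact UMIs lay in 42 cells for H2-Aa and in 35 cells for H2-Eb1. The class I genes were within 2-fold, with H2-D1, a heavy chain, at 1763 CPM in injured and 2106 CPM in intact nerve. B2m, the light chain, had 1394 CPM in injured and 1617 CPM in intact nerve. Beside the class II genes, the leukocyte genes Ptprc, Lyz2 and Tyrobp had no UMI in either library, and 7 of the 14 myeloid genes were at 0 in injured and 10 in intact nerve. Cd14, of the same list, went the other way from the class II genes, with 64.4 CPM in injured and 35.7 CPM in intact nerve. Cd68, also listed, had UMIs in 37 of 362 injured and 14 of 213 intact cells. The part of leukocyte RNA in the class II levels was not tested.

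Interferon response genes had 18 of 20 measured, none higher and 4 lower, 22.2% of the measured members in all, against 8.39% of all measured genes, with a median of -0.54, against -1.71 in the other EC_ classes. Ifit3, an antiviral effector, had 6.52 CPM in injured and 47.6 CPM in intact nerve, 7.30-fold (4.68 to 11.6) lower. Ifit1, its relative, had 12.6 CPM in injured and 48.3 CPM in intact nerve, 3.83-fold (2.65 to 5.53) lower. The guanylate-binding proteins Gbp4 and Gbp7 were the other 2, Gbp4 with 50.1 CPM in injured and 139.8 CPM in intact nerve and Gbp7 with 71.7 CPM in injured and 166 CPM in intact nerve. Ifitm3, which blocks viral entry, was the most abundant member and near level, with 3609 CPM in injured and 3276 CPM in intact nerve.

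Among haemostasis genes 13 of 18 were measured, with 1 higher, 2 lower, 23.1% of the measured members in all, against 8.39% of all measured genes, and a median of -0.21. A count of 3 in so short a list is few. Tfpi, the inhibitor of tissue factor, had 95.9 CPM in injured and 45.4 CPM in intact nerve, 2.11-fold (1.62 to 2.81) higher. Thbd, thrombomodulin, had 111 CPM in injured and 328 CPM in intact nerve, 2.94-fold (2.59 to 3.34) lower. Procr, which works with thrombomodulin to activate protein C, was within 2-fold, with 214 CPM in injured and 199 CPM in intact nerve. Nt5e, the ectoenzyme that makes adenosine, had 28.0 CPM in injured and 112 CPM in intact nerve, 3.99-fold (3.14 to 5.07) lower. Entpd1, the enzyme upstream of Nt5e, was within 2-fold, with 404 CPM in injured and 331 CPM in intact nerve.

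Vasoactive genes had 12 of 20 measured, with 1 higher and 1 lower, 16.7% of the measured members in all, against 8.39% of all measured genes, and a median of -0.20. The list is not set apart by a count of 2. Ptgs2, the inducible prostaglandin synthase, had 22.5 CPM in injured nerve and no UMI in intact nerve, at least 10.1-fold higher by the same limit. Its 107 injured UMIs lay in 16 cells, 31 of them in 1 cell, and the other EC_ classes had 0.459 CPM in injured and 0.938 CPM in intact nerve. The constitutive Ptgs1 had 171 CPM in injured and 256 CPM in intact nerve, within 2-fold. Hrh1, the histamine receptor that opens venular junctions, had 13 CPM in injured and 36.4 CPM in intact nerve, 2.79-fold (1.88 to 4.13) lower. Edn1, endothelin-1, had 114 CPM in injured and 211 CPM in intact nerve, within 2-fold.

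All 9 caveolar genes were measured, with none higher, 2 lower, 22.2% of the measured members in all, against 8.39% of all measured genes, and a median of -0.38. Cavin1, a coat protein of caveolae, had 385 CPM in injured and 789.6 CPM in intact nerve, 2.05-fold (1.90 to 2.21) lower. Cav2 had 162 CPM in injured and 338 CPM in intact nerve, 2.09-fold (1.86 to 2.35) lower, while Cav1, the main caveolin, was level with 732 CPM in injured and 773 CPM in intact nerve. Of 14 junction genes 10 were measured, 1 was higher and 1 lower, 20% of the measured members in all, against 8.39% of all measured genes, and the median was -0.15. Nectin2, an adhesion protein of adherens junctions, was the higher one, with 146 CPM in injured and 67.7 CPM in intact nerve, and Jam2 the lower. Cldn5 had 75.9 CPM in injured and 48.3 CPM in intact nerve, 1.57-fold (1.20 to 2.08) higher and short of 2-fold. In the other EC_ classes Cldn5 was lower in injured nerve, with 733 CPM in injured and 3721 CPM in intact nerve.

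Vessel identity and Notch genes had 15 of 18 measured, with 1 higher and 1 lower, 13.3% of the measured members in all, against 8.39% of all measured genes, a count of 2, and a median of -0.19. Aplnr, the apelin receptor, which marks venous and growing endothelium, had 623 CPM in injured and 193 CPM in intact nerve, 3.22-fold (2.84 to 3.67) higher. Hes1, a Notch target, had 82.5 CPM in injured and 268 CPM in intact nerve, 3.26-fold (2.81 to 3.77) lower. Venous genes were within 2-fold: Ephb4, the venous ephrin receptor, had 134 CPM in injured and 195 CPM in intact nerve, and Nrp2, a co-receptor of veins and lymphatics, 454 CPM in injured and 488 CPM in intact nerve. Emcn, a sialomucin of veins and capillaries, had 1101 CPM in injured and 767 CPM in intact nerve. Sox17, an arterial factor, had 98.4 CPM in injured and 146 CPM in intact nerve.

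Among 14 genes of VEGF, angiopoietin and apelin signalling 11 were measured, 3 were higher and 1 lower, 36.4% of the measured members in all, against 8.39% of all measured genes, and the median was 0.11. Apln, the ligand of Aplnr, had 81.0 CPM in injured and 23.0 CPM in intact nerve, 3.51-fold (2.43 to 5.24) higher, so receptor and ligand were higher together. Angpt2, an angiopoietin of sprouting vessels, had 98.4 CPM in injured and 36.4 CPM in intact nerve, 2.70-fold (2.01 to 3.71) higher. Vegfc, a lymphatic growth factor, had 17.9 CPM in injured and 60.2 CPM in intact nerve, 3.37-fold (2.45 to 4.62) lower. The VEGF receptor Kdr had 314 CPM in injured and 254 CPM in intact nerve and the decoy receptor Flt1 505 CPM in injured and 800.0 CPM in intact nerve, both within 2-fold. Of 11 tip cell markers 7 were measured and 3 were higher, namely Apln, Angpt2 and Nid2. Esm1, a secreted marker of tip cells, stayed low in the class with 3.79 CPM in injured and 0 in intact nerve, against 56.9 CPM in injured and 50.0 CPM in intact nerve in the other EC_ classes.

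BMP and TGF-beta genes had 17 of 21 measured, with 1 higher, Tgfbi, and 4 lower, 29.4% of the measured members in all, against 8.39% of all measured genes, and a median of -0.28. Id1, a direct target of BMP signalling, had 86.9 CPM in injured and 283 CPM in intact nerve, 3.25-fold (2.82 to 3.75) lower. Its relative Id3 had 280.4 CPM in injured and 575 CPM in intact nerve, 2.05-fold (1.88 to 2.24) lower. The ligand Bmp4 was lower with these targets, at 122 CPM in injured and 274 CPM in intact nerve. Ltbp4, which holds latent TGF-beta in the matrix, had 171 CPM in injured and 578 CPM in intact nerve, 3.39-fold (3.07 to 3.75) lower. Eng, a co-receptor, was near level with 937 CPM in injured and 882 CPM in intact nerve.

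Basement membrane and matrix genes had the highest median of the lists of gene functions. Of 22 genes 21 were measured, 9 were higher and 3 lower, 57.1% of the measured members in all, against 8.39% of all measured genes. The median was 0.95 in the class and 1.17 in the other EC_ classes, against 0.06 over all genes in the class. The summed level was 9772 CPM in injured and 4712 CPM in intact nerve. Sparc, a collagen-binding matrix protein, had 2798 CPM in injured and 759.9 CPM in intact nerve, 3.68-fold (3.45 to 3.93) higher, and was the most abundant member. Fn1, fibronectin, had 63.3 CPM in injured and 5.2 CPM in intact nerve, 12.2-fold (5.83 to 30.5) higher. Vcan, a proteoglycan of provisional matrix, had 148 CPM in injured and 29.0 CPM in intact nerve, 5.11-fold (3.70 to 7.24) higher. These genes joined the collagens and Lamb1 described above. Nid2, a nidogen, had 16.4 CPM in injured and 5.2 CPM in intact nerve, 3.15-fold (1.46 to 8.10) higher.

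Chains and inhibitors of the same families differed in direction. Lamb2, a laminin chain that can stand in for Lamb1, had 63.9 CPM in injured and 158 CPM in intact nerve, 2.47-fold (2.06 to 2.95) lower. Timp1, an inhibitor of matrix proteases, had 58.7 CPM in injured and 10.4 CPM in intact nerve, 5.64-fold (3.30 to 10.4) higher. Its relatives Timp3, with 289 CPM in injured and 668 CPM in intact nerve, and Timp2, with 274 CPM in injured and 570.3 CPM in intact nerve, were lower.

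Flow response genes had 9 of 10 measured, 1 higher and 3 lower, 44.4% of the measured members in all, against 8.39% of all measured genes, and a median of -0.46. Klf2, a transcription factor that laminar flow induces, had 676 CPM in injured and 1946 CPM in intact nerve, 2.88-fold (2.73 to 3.03) lower. Its relative Klf4 had 375 CPM in injured and 1344 CPM in intact nerve, 3.58-fold (3.35 to 3.83) lower. Thbd, one of their targets, was the third lower gene. In the other EC_ classes Klf2 was 3.71-fold, Klf4 4.54-fold and Thbd 3.04-fold lower in injured nerve, and the list's median was -0.33. Hmox1, which degrades haem, had 45.0 CPM in injured and 14.9 CPM in intact nerve, 3.03-fold (1.91 to 5.06) higher.

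All 14 immediate early genes were measured, none was higher and 7 were lower, 50.0% of the measured members in all, against 8.39% of all measured genes, with a median of -1.02 in the class and -1.54 in the other EC_ classes. Their sum was 9032 CPM in injured and 18191 CPM in intact nerve. Fos, an AP-1 subunit, had 1267 CPM in injured and 3172 CPM in intact nerve, 2.50-fold (2.41 to 2.6) lower. Egr1, an early growth response factor, had 434 CPM in injured and 1440.2 CPM in intact nerve, 3.32-fold (3.12 to 3.53) lower. Zfp36, which destabilises inflammatory mRNAs, had 536 CPM in injured and 1615 CPM in intact nerve, 3.02-fold (2.85 to 3.19) lower. Klf2 and Klf4 were thus lower beside genes known to respond quickly to the handling of tissue, and the part of dissociation in either group was not tested.

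Lipid genes had 11 of 13 measured, 2 higher and 2 lower, 36.4% of the measured members in all, against 8.39% of all measured genes, and a median of -0.50. Fabp4, the most abundant member, had 5734 CPM in injured and 10611 CPM in intact nerve, 1.85-fold (1.81 to 1.89) lower and within 2-fold. Cd36 had 350.0 CPM in injured and 858 CPM in intact nerve, 2.45-fold (2.27 to 2.64) lower. Apoe, an apolipoprotein, had 473 CPM in injured and 2464 CPM in intact nerve, 5.21-fold (4.94 to 5.50) lower. Both higher members act on lipoprotein lipase. Gpihbp1 had 119 CPM in injured and 37.2 CPM in intact nerve, 3.21-fold (2.40 to 4.38) higher. Angptl4, an inhibitor of the lipase, had 44.6 CPM in injured and 11.9 CPM in intact nerve, 3.75-fold (2.26 to 6.68) higher. The water channel Aqp1, a capillary marker, had 1266 CPM in injured and 2825 CPM in intact nerve, 2.23-fold (2.14 to 2.32) lower. Rgcc, another capillary marker, had 89.6 CPM in injured and 22.3 CPM in intact nerve, 4.02-fold (2.77 to 6.03) higher, so capillary markers were found on both sides.

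Of 16 glycolysis genes 15 were matched and 13 measured, none higher and 1 lower, 7.69% of the measured members in all, against 8.39% of all measured genes, a share near that of all genes, and a median of 0.34. The lower one was Pfkfb3, which speeds glycolysis, with 21.7 CPM in injured and 92.2 CPM in intact nerve, 4.26-fold (3.25 to 5.58) lower. Pkm, pyruvate kinase, had 432 CPM in injured and 219 CPM in intact nerve, short of 2-fold after adding 5 CPM. Of 10 genes of the insulin-like growth factor system 7 were measured, 1 was higher and 1 lower, 28.6% of the measured members in all, against 8.39% of all measured genes, with a median of 0.03. Igfbp7, a matrix-bound binding protein, had 6408 CPM in injured and 2727 CPM in intact nerve, 2.35-fold (2.27 to 2.43) higher. Igfbp6, which prefers the growth factor Igf2, had 11.4 CPM in injured and 58.7 CPM in intact nerve, 5.17-fold (3.61 to 7.45) lower. Igf1 itself had 246 CPM in injured and 135 CPM in intact nerve, 1.82-fold (1.55 to 2.14) higher and within 2-fold.

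**Figure D4:**
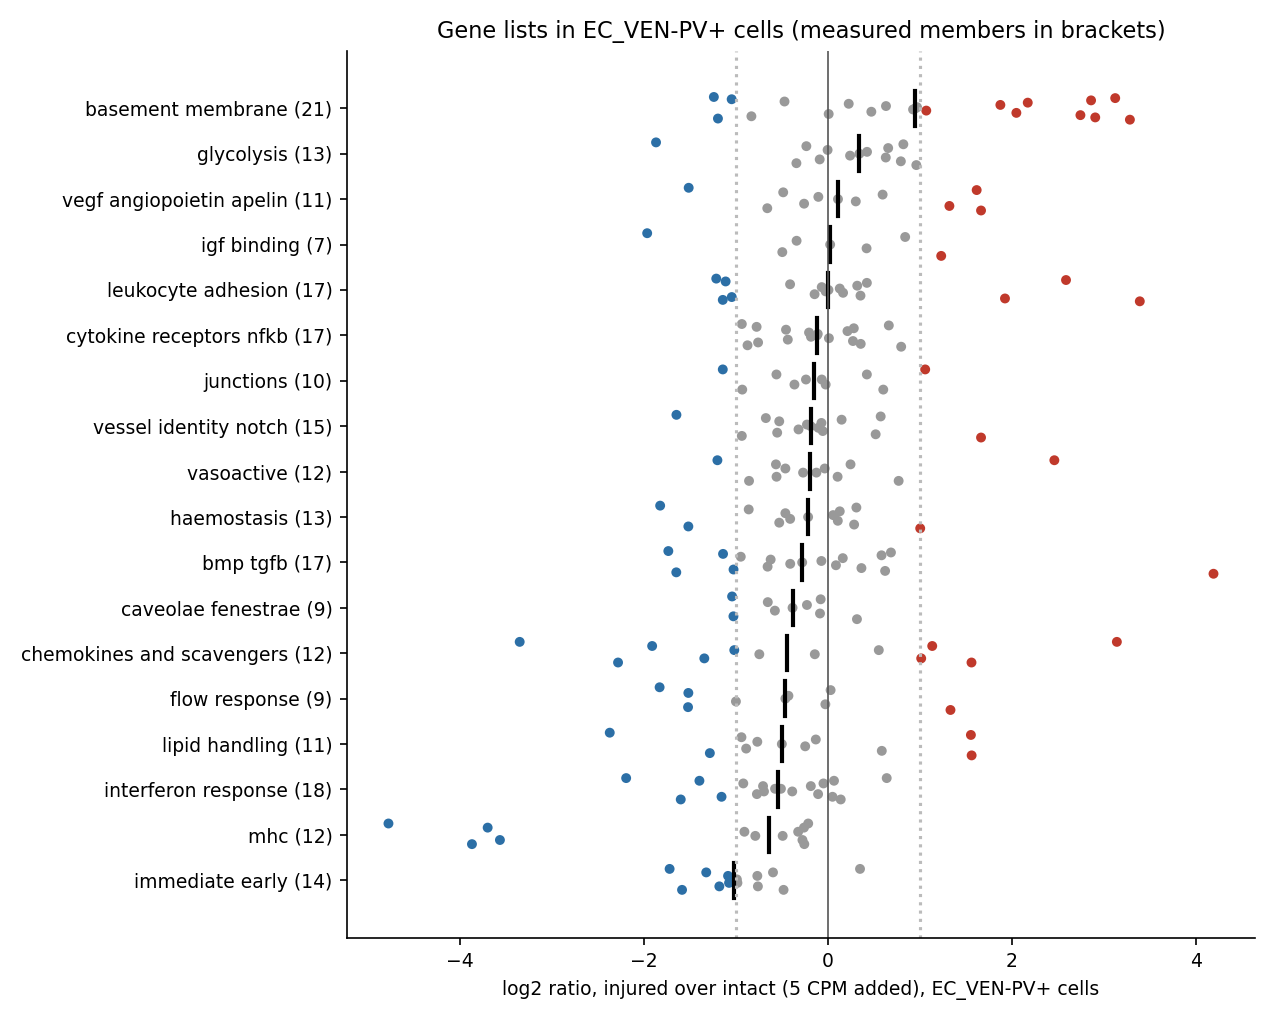
Log2 ratio of injured to intact EC_VEN-PV+ for the measured members of each gene list, after adding 5 CPM. Each point is a gene, red where at least 2-fold higher and blue where at least 2-fold lower in injured nerve, bars are medians and dotted lines mark 2-fold. Basement membrane genes have the highest median (0.95) and immediate early genes the lowest of the lists of gene functions (-1.02), while all points of the cytokine receptor list lie between the dotted lines.

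Within each library the class was not uniform. Cells were grouped by their own variable genes, separately in each library, and the groups are numbered and given no cell type name, since their defining genes come from the same cells. Injured cells formed 4 groups. Group 1 (132 cells, 36.5%) had the most Eln, elastin (792 against 135 CPM in the rest), Lbp (284 against 46.5 CPM) and Mgp, an inhibitor of calcification (735 against 177 CPM). Group 2 (100 cells, 27.6%) had the most Cxcl10 (187 against 36.3 CPM), Gpihbp1 (282 against 75.8 CPM) and Cd300lg (188 against 54.7 CPM), of which Gpihbp1 and Cd300lg were among the capillary markers. Group 3 (73 cells, 20.2%) led in Apln (173 against 54.3 CPM), Csf3 (199.9 against 85.2 CPM) and Cxcl1 (226 against 108 CPM), and group 4 (57 cells, 15.7%) in Angpt2 (219 against 63.7 CPM) and Thbs1, thrombospondin-1 (449 against 138 CPM). Mgp is on the arterial list, and Apln and Angpt2 are on the tip cell list. Cldn5, of the barrier list, was also higher in group 4 (144 against 56.3 CPM). Group 4 was also the deepest, with a median of 16592 UMIs, against 9760.5, 7861 and 11740 in groups 1 to 3.

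Intact cells formed 3 groups. Group 1 (81 cells, 38.03%) led in Aplnr (299.5 against 95.6 CPM) and Cd300lg (268 against 97.1 CPM). Group 2 (72 cells, 33.8%) stood farthest apart, with Ccdc3 (169 against 5.63 CPM), Cytl1 (1246 against 109 CPM), the matrix protein Comp (197 against 15.8 CPM), Cpe (981 against 154 CPM) and Mgp (1377 against 284 CPM). These 72 cells held 569 of the 666 intact Cytl1 UMIs. Group 3 (60 cells, 28.2%) led in Ly6c1 (898 against 378 CPM) and had the lowest median depth, 3882.5 UMIs, against 7321 and 4827 in groups 1 and 2.

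The venous markers were present in every group, at uneven levels. Ackr1 had 898, 353, 701 and 422 CPM in injured groups 1 to 4 and 587, 841 and 721 CPM in intact groups 1 to 3. Selp had 1763, 746, 1126 and 1679.9 CPM in injured groups 1 to 4 and 1134, 1785 and 643 CPM in intact groups 1 to 3. Vwf had 1263, 439.9, 513 and 582 CPM and 1075, 2072 and 979.6 CPM in the same order. In each library the group rich in Mgp, injured group 1 and intact group 2, had the most Ackr1, Selp and Vwf. Plvap varied less, with 1864, 1947, 1701 and 1287 CPM in injured and 2134, 2279.7 and 2447 CPM in intact groups. Cd74 in intact nerve was spread over the groups at 174, 254 and 139 CPM, and in injured nerve its 10 UMIs of 1 cell fell in group 2. Col4a1 in injured nerve was high in every group, 1395, 2014, 2093 and 2138 CPM, and above each intact group, 256, 74.5 and 209 CPM. Mest in injured nerve had 128, 308, 306 and 182 CPM, and Glycam1 126, 70.5, 74.7 and 52.7 CPM, highest in group 1.

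**Figure D5:**
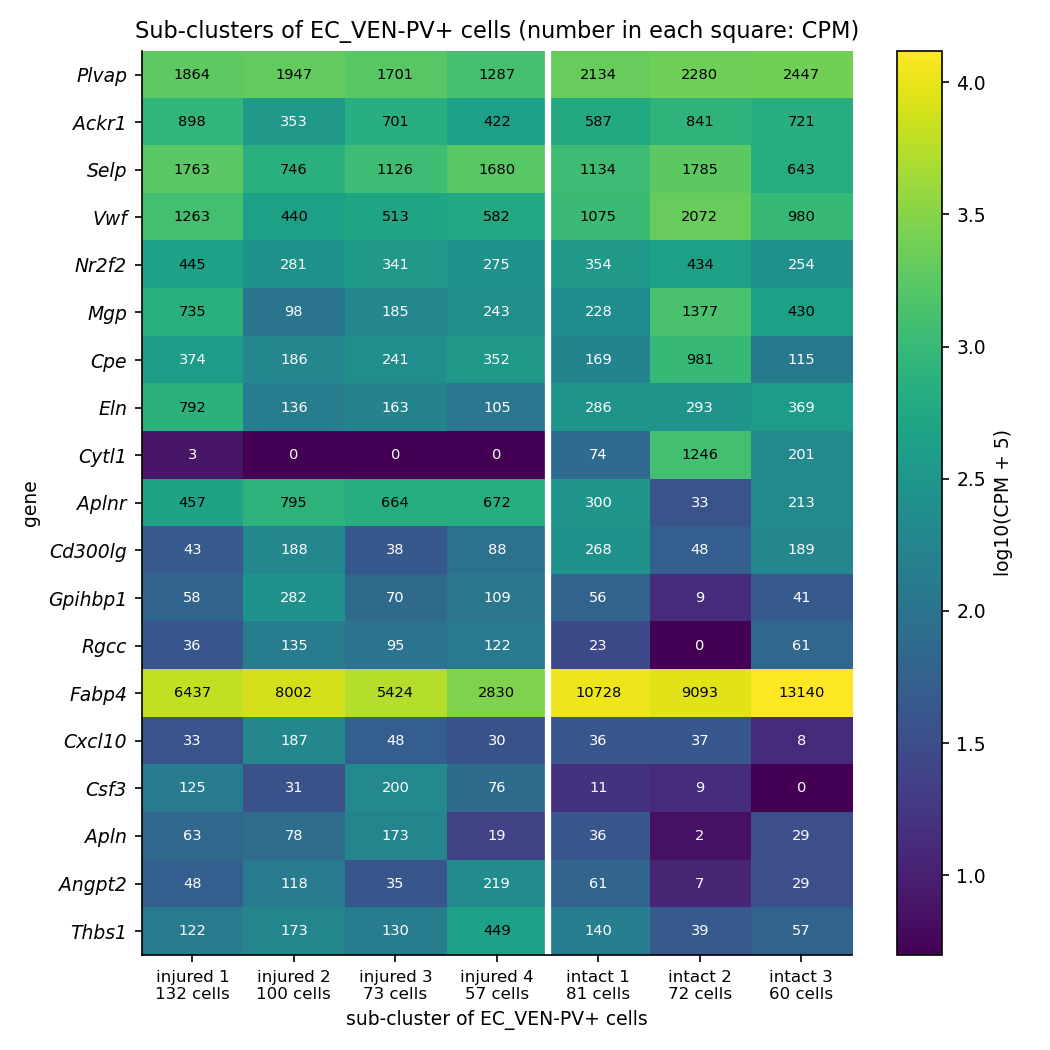
Summed level of 19 genes in the 4 groups of injured and the 3 groups of intact EC_VEN-PV+ cells; the number in each square is the CPM and the shade follows its logarithm. Selp, Ackr1 and Vwf are highest in injured group 1 and intact group 2, and Cytl1 is concentrated in intact group 2.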

How the data were processed

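Single-cell RNA was read from 2 sorted 10x libraries of mouse sciatic nerve, 1 injured and 1 intact. The authors deposited filtered matrices of UMI counts per gene and barcode, not normalized, written by software version 3.0.2 per the file headers. Per the submitters' processing notes, Cell Ranger 3.0.2 and 6.1.2 and Seurat 4.0.1 were used, with mm10 and GRCm38 as builds. A table by the authors gives a class to each annotated cell, and for its making, the filters on cells and any removal of doublets, nothing is stated in the labels read here. Of 53380 features, 50604 had the same versioned identifier in GENCODE M21 and 53274 the same identifier without version, and positions are from that GRCm38 annotation.

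Counts were summed over the cells of a class in each library and divided by the class total to give CPM. Log2 ratios were taken after adding 5 CPM, genes averaging at least 10 CPM over the groups compared were measured, and 2-fold was the threshold. Poisson and binomial 95% intervals are exact. Cells were thinned to 3000 UMIs for shares, with a fixed random seed. For groups within the class, 2000 variable genes, 20 principal components, 15 neighbours and Leiden resolution 0.5 were used per library. Scrublet marked 4 of 2023 injured and 3 of 1618 intact barcodes, 0.198% and 0.185%, so few that the caller was not relied on. The 1 marked intact cell of the class was kept, and no doublets were removed. Python 3.11.15, numpy 2.4.6, scipy 1.17.1, pandas 2.3.3, scanpy 1.11.5 and matplotlib 3.10.9 were used, and the count rule was tested on simulated data.

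The members and gene lists were chosen with earlier results of these data known. Named genes were the 5 markers; the 12 highest and 12 lowest injured to intact ratios, where the library with more held 100 CPM and 30 UMIs or more; the 12 highest and 6 lowest against the other EC_ classes, and the 6 highest and 6 lowest against EC_VEN-PV-, by the less extreme library; the 5 highest and 5 lowest differences; and the 2 highest and 2 lowest of each list. Mitochondrial, ribosomal protein, predicted, haemoglobin, immunoglobulin and sex-linked genes were left out of these ranks. Other list members are named for their role after their values were seen. Aldoa was not matched uniquely by symbol. Alternatives changed the shared-barcode rule, scaling, depth, added CPM, filter on low values and cells with markers of division or of other cell types.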

Additional observations from a re-analysis of the deposited data

Results flagged for a closer look

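Nt5e, the ectoenzyme that makes adenosine, went one way in EC_VEN-PV+ and the other in the remaining EC_ classes. In the class it had 28.0 CPM in injured and 112 CPM in intact nerve, -1.82 on the log2 scale. In the other EC_ classes pooled it had 16.1 CPM in injured and 2.81 CPM in intact nerve, 1.43 on the log2 scale. The difference between the changes was -3.25, and with 1 library per condition it was not tested.

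Barcodes without a class were not used in the comparisons, and some of them held venous markers. Among unannotated barcodes with at least 1000 UMIs, 76 of 432 (17.6%, 14.1 to 21.5) in the injured and 29 of 665 (4.36%, 2.94 to 6.2) in the intact library had UMIs of at least 3 of the 5 markers. They were deep, with a median of 25322.5 UMIs in the injured and 12913 in the intact library. Their summed RNA held 950 CPM of Cdh5, 77.4 CPM of Ackr1 and 275 CPM of Selp in the injured library, and 804, 38.7 and 127 CPM in the intact one. It also held 2052 CPM of the fibroblast gene Col1a1 and 1187 CPM of the pericyte gene Rgs5 in the injured library, and 232 and 1570.2 CPM in the intact one. The part of doublets in these barcodes was not tested.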

How the results depend on the processing

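Of 85 counts and share ratios recomputed under alternatives, 60 stayed within 1.5 times, or the counting interval, of their main value. The other 25 follow. Stricter filters and larger added values leave fewer genes by construction, and the cause of the other shifts was not tested. For injured against intact nerve, the 306 higher and 374 lower genes became 130 and 194 with 20 CPM added, 111 and 168 with a mean of at least 50 CPM, and 929 and 667 without cells holding other cell types' markers. Against the other EC_ classes, 135 and 107 became 64 and 40 with 20 CPM added and 64 and 45 with at least 50 CPM, and the lower genes became 170 with 1 CPM added. Against EC_VEN-PV-, 79 and 87 became 32 and 35 with 20 CPM and 35 and 43 with at least 50 CPM. For the difference from the other classes, 311 and 244 became 521 and 378 with thinned cells, 170 and 116 with 20 CPM, 479 and 440 with no filter on low values, 106 and 77 with at least 50 CPM, and 1197 and 547 without cells holding other markers. Pclaf reversed in that comparison, with 0.17 once cells with UMIs of at least 2 mitosis genes were left out and -3.52 with them, an alternative that by construction removes dividing cells from the other classes. Without cells holding other markers, Vwf reached -1.02 in the class, and the Slc16a4 difference was 0.09 against 3.70. This filter also removes endothelial cells of the other classes that hold Mal or Acta2, so it changes their mix. Median-of-ratios scaling moved the median log2 ratio to 0.00 and gave 261 higher and 426 lower genes. Counts of higher and lower members of the function lists were recomputed as well. Of these, 411 stayed within 1.5 times of their main value and 57 did not, so the list counts also depend on such choices. With 1 library per condition, depth sets only the counting error, and the spread between animals is not measured. Leaving out EC_VEN-PV- from the other classes, and not counting Tagln, Acta2, Cd14 and Pmp22 as markers, were chosen after seeing the data. No paired analysis was possible because each condition was 1 library, and for the same reason no replicate could be left out.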
